A study of Mus musculus with 3 samples.

Results

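The genes described here are the tetraspanins of leukocytes, a set of 10 named genes: Cd9, Cd37, Cd53, Cd63, Cd81, Cd82, Cd151, Tspan3, Tspan13 and Tspan14. They were chosen by symbol, and all 10 were found among the 14811 genes of the deposited table. The table holds RNA-seq values of macrophages sorted from the kidneys of C57BL6/J mice, one library from each of 3 mice. Every mouse had received PBS intravenously 1 h before its kidneys were taken, and the labels give no second group, age or sex and do not name the surface markers used for the sort. Summed over the listed genes, depth was 50951549, 56718534 and 50646558 reads in mice 1, 2 and 3. Levels are normalised read counts (reads divided by a size factor per library, with the 1 that had been added to each deposited value removed), and levels of different genes are compared only after division by exon length in kb.

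Tetraspanins are small proteins that cross the membrane with 4 helices and carry a short and a long extracellular loop. They bind each other and other membrane proteins, among them integrins, immunoglobulin-superfamily proteins and proteases of the ADAM family, and so gather them into patches of membrane. In leukocytes they are known for effects on adhesion, cell fusion, antigen presentation and the traffic of receptors, and several of them are standard markers of exosomes, the vesicles released from multivesicular endosomes.

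The promoters of 3 members are shown because these genes cover the range of levels found. Cd53 and Cd81 were the members with the highest levels, while Cd37, which like Cd53 is largely restricted to blood cells, was close to the lowest. Each sequence runs 5′ to 3′ on the strand of its gene, from 250 bases before the start of the gene to 50 after it, and is taken from RefSeq on build GRCm38.p6. The authors' values rest on another build, mm9. Capitals mark every GAGGAA (the core bound by PU.1-type ETS factors), GGGCGG (the GC box) and TATAAA, each searched on both strands; no match overlapped another in these 3 sequences.
Cd53 (chr3:106790100-106790399, minus strand): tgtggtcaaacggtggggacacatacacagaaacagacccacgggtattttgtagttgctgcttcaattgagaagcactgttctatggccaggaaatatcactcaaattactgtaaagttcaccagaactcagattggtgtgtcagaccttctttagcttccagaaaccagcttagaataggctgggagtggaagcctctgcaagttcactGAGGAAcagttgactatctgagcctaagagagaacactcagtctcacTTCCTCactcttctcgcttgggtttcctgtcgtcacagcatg
Cd81 (chr7:143052500-143052799, plus strand): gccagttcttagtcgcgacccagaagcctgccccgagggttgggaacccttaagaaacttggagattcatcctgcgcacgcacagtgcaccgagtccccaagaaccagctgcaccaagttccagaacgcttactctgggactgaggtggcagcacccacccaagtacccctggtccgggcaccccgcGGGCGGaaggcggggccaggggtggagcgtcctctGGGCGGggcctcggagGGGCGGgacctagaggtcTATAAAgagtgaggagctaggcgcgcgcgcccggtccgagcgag
Cd37 (chr7:45238790-45239089, minus strand): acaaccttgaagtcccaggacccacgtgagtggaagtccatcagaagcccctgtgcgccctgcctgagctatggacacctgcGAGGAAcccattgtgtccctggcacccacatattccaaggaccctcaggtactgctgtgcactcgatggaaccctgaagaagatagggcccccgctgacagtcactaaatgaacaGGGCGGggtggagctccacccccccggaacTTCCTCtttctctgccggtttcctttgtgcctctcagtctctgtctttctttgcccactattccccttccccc

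The Cd53 window holds GAGGAA or its complement at 2 places, no GC box and 4 CpG dinucleotides. The Cd81 window holds no GAGGAA, but 3 GC boxes, a TATAAA and 23 CpG. The Cd37 window holds GAGGAA at 2 places, 1 GC box and 8 CpG. The median over the 32851 promoters of the RefSeq table is 7 CpG. Of those promoters, 28.3% hold GAGGAA, 35.7% GGGCGG and 13.6% TATAAA. All 10 members had an entry, 15 in all since 3 members have several start sites. Among these entries, 40% hold GAGGAA, 53.3% GGGCGG and 6.67% TATAAA. Cd53 and Cd37 carry the same number of GAGGAA matches, and whether these matches bear on the levels of the genes was not tested.

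Cd53, a pan-leukocyte surface protein, was at 63659.5, 47158.5 and 68385 normalised reads in mice 1, 2 and 3. Cd81, which forms part of the B cell co-receptor and is an exosome marker, was at 93548, 62465.5 and 79705. Both genes were lowest in mouse 2, and in each library every other member was below them. Per kb of exon, Cd53 reached 34291 ± 6398 (SD, n = 3 mice) and Cd81 27292 ± 5409. Cd53 ranked 50th, 49th and 43rd and Cd81 51st, 60th and 57th among all genes with an exon length in mice 1, 2 and 3, so both lay among the most abundant transcripts of these cells. Which of them was higher depends on the length used. With the union of all exons, Cd53 exceeded Cd81 in 3 of 3 mice (log2 difference 0.33 ± 0.17, SD, n = 3). With the longest transcript the log2 difference was -0.51 and without division by length it was -0.39.

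**Figure D1:**
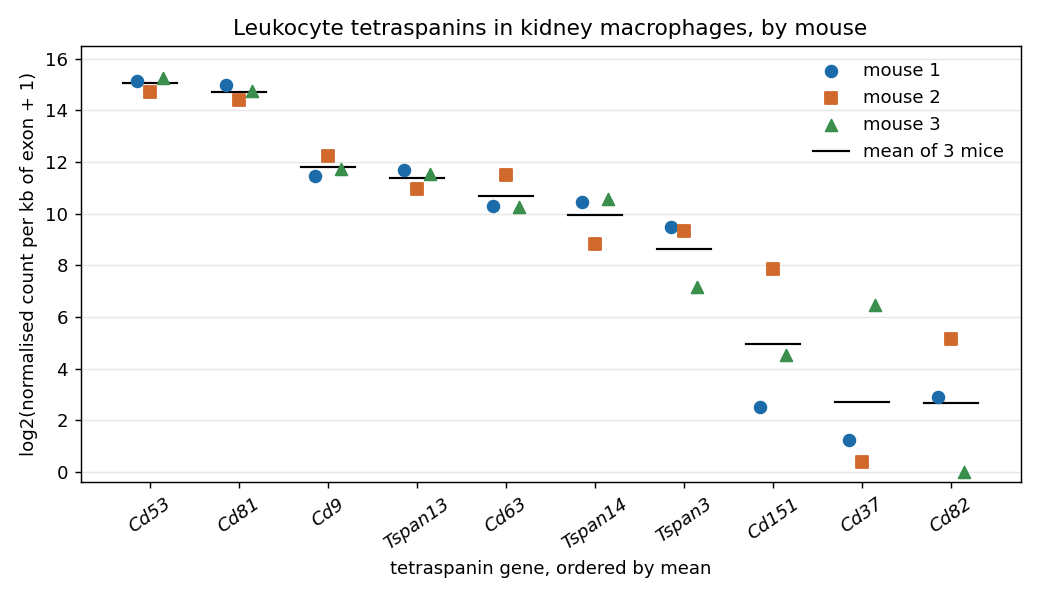
Level of each leukocyte tetraspanin in each mouse, as log2(normalised count per kb of exon + 1) on the vertical axis, with genes on the horizontal axis in order of the mean of 3 mice (black line). Cd53 and Cd81 stand above the rest, 5 genes follow without clear gaps, and Cd151, Cd37 and Cd82 are low with wide scatter between mice.

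The next group held Cd9, Tspan13, Cd63, Tspan14 and Tspan3. Cd9, which is known to restrain the fusion of macrophages and is found on exosomes, was at 5694, 9988 and 6911 normalised reads in mice 1, 2 and 3. Cd63, a tetraspanin of late endosomes, lysosomes and secretory granules, was at 4648.5, 10672 and 4526. Both genes were highest in mouse 2, with mouse 2 above the mean of the others by 1.58-fold for Cd9 and 2.33-fold for Cd63.

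Tspan13, a little studied member, was at 8187, 4910.5 and 7417 normalised reads. Tspan14, a member of the TspanC8 subgroup that escorts the protease ADAM10 to the cell surface, was at 3734, 1202 and 3986. Tspan3, found inside cells and at the surface, was at 3038, 2719 and 606. Mouse 2 was the lowest for Tspan13 and Tspan14, and mouse 3 for Tspan3. Per kb, the means were 3684 ± 1083 for Cd9, 2764 ± 693 for Tspan13 and 1797 ± 954 for Cd63 (SD, n = 3). They were 1122 ± 581 for Tspan14 and 496 ± 309 for Tspan3.

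The last 3 members were low and irregular. Cd151, a partner of laminin-binding integrins, was at 12.9, 641 and 59.9 normalised reads in mice 1, 2 and 3, which are 16, 1155 and 85 reads. Cd37, known for its role in B cells and dendritic cells, was at 4.84, 1.11 and 304, from 6, 2 and 432 reads. Cd82, described as a suppressor of metastasis and found on the surface and on endosomes, was at 19.4 and 105 in mice 1 and 2 and at 0 in mouse 3. For these genes a single mouse held most of the signal, mouse 2 for Cd151 and Cd82 and mouse 3 for Cd37. A count of 0 in mouse 3 allows up to 2.11 normalised reads (3 reads, counting error only), and the cDNA was amplified from very little RNA without molecular identifiers, so reads are not molecules. Per kb these genes came to 86.8 ± 128 for Cd151, 29.4 ± 49.4 for Cd37 and 13.8 ± 18.6 for Cd82 (SD, n = 3), with an SD above the mean in each case.

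In the order of levels per kb, Cd53, Cd81, Cd9, Tspan13, Cd63, Tspan14, Tspan3, Cd151, Cd37 and Cd82, most neighbours could not be told apart. A pair was taken to differ beyond its spread where the within-library difference had one sign in every mouse and a mean larger than its SD. This held for 3 of the 9 neighbouring pairs: Cd53 over Cd81 with the reservation on length given above, Cd81 over Cd9 and Tspan3 over Cd151. Cd81 exceeded Cd9 by 7.51-fold per kb (log2 difference 2.91 ± 0.70, SD, 3 of 3 mice), and Tspan3 exceeded Cd151 by 12.8-fold (log2 difference 3.68 ± 2.90, 3 of 3 mice). The latter fold moved with the mice used, and was 4.12 without mouse 1, 27.9 without mouse 2 and 18.4 without mouse 3. From Cd9 down to Tspan3, and from Cd151 down to Cd82, the order of neighbours changed between mice. Without mouse 2, 6 of the 9 pairs differed beyond their spread in either direction. Among these, Cd63 over Tspan14 ran against the order given (log2 difference -0.225 ± 0.094, SD, mice 1 and 3). No p is given for these pairs, since with 3 mice the smallest two-sided p of an exact sign-flip test is 0.25.

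Each gene was next set against the median gene of its own library, in a limma fit across the 11603 genes with an exon length and a mean of 10 or more normalised reads. All 10 members were in this fit, Cd37 only through mouse 3 and Cd82 only through mouse 2. Cd151 had most of its reads in mouse 2 but also met the filter without it. Of the 10 members, 7 were higher than the median gene, none was lower and 3 were not called. Of all genes tested, 23.3% were called higher and 10.7% lower. The median of the members lay 3.97 log2 units above the median gene, while that of all genes tested was -0.69.

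The 7 members called higher ranged from Cd53 (log2 difference 8.70 ± 0.29 SE, limma adjusted p = 2.60e-193) and Cd81 (8.37 ± 0.30 SE) through Cd9 (5.46 ± 0.43 SE), Tspan13 (5.05 ± 0.46 SE) and Cd63 (4.34 ± 0.52 SE) to Tspan14 (3.60 ± 0.61 SE) and Tspan3. Tspan3 was the closest to the threshold (log2 difference 2.30 ± 0.81 SE, limma adjusted p = 0.0156), above the median gene in 3 of 3 mice. These SEs and the extreme p-values arise because the fitted trend took the spread of each gene wholly from genes of like level. The SEs are thus not the spread of the gene itself over the 3 mice. Without the trend the SE was 0.846 for Cd53 and 0.847 for Cd81. With a common prior in place of the trend, the limma adjusted p was 0.0415 for Cd53 and Cd81, 0.0436 for Cd9, 0.0447 for Tspan13 and 0.0457 for Cd63. The calls of Tspan14 (adjusted p = 0.0635, limma) and Tspan3 (adjusted p = 0.145, limma) were lost there, which leaves 5 members against 9.17% of all genes. The call of Tspan3 was also lost without mouse 1 (adjusted p = 0.300, limma) and without mouse 2 (adjusted p = 0.498, limma).

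Cd151 (log2 difference -1.38 ± 2.09 SE, limma adjusted p = 0.651), Cd37 (-3.65 ± 2.05 SE, limma adjusted p = 0.167) and Cd82 (-3.66 ± 2.05 SE, limma adjusted p = 0.165) did not pass the test. Cd151 was above the median gene in 1 of 3 mice, Cd37 in 1 and Cd82 in 0.

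**Figure D2:**
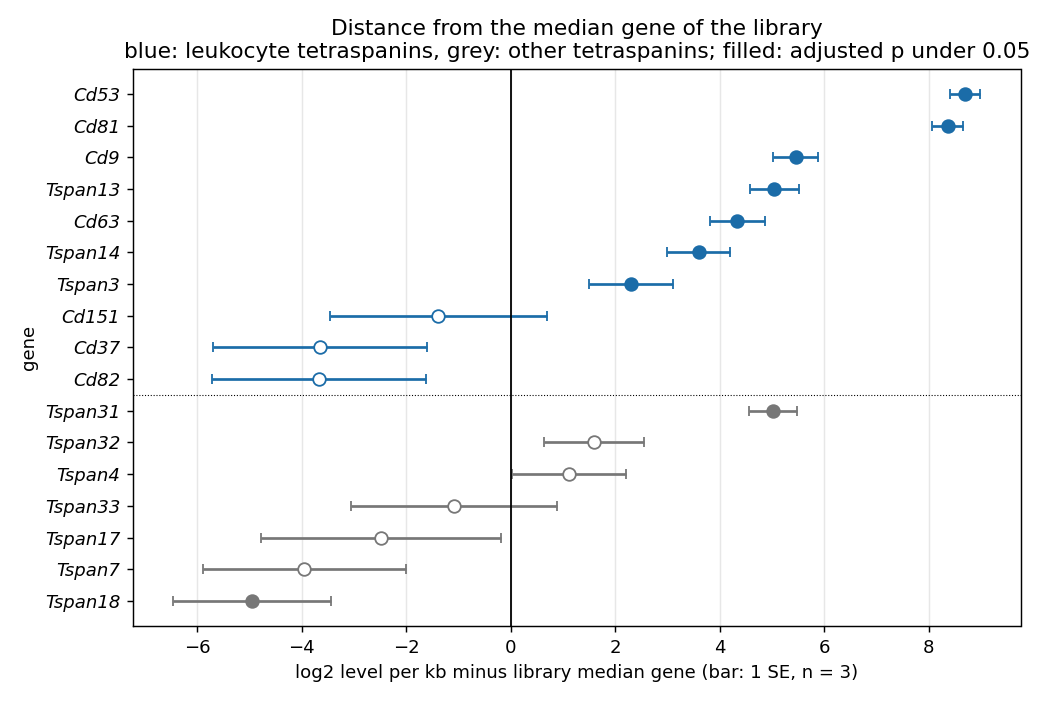
Distance of each tetraspanin from the median gene of its library, as the mean over 3 mice of the log2 level per kb with 1 SE from the limma fit, for the leukocyte tetraspanins (blue) and the 7 other tetraspanins in the fit (grey). Filled points passed an adjusted p of 0.05: 7 blue genes and Tspan31 above 0, and Tspan18 below 0. The SE reflects the spread of genes of like level, not that of the gene itself over the 3 mice.

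By absolute level, 6 of the 10 members were at 1000 or more normalised reads in every mouse: Cd53, Cd81, Cd9, Cd63, Tspan13 and Tspan14. Over all listed genes this share was 14.7%. Tspan3 missed it through mouse 3 alone. The 10 members together took 0.444%, 0.444% and 0.482% of the reads in mice 1, 2 and 3. Their summed level was 182546, 139863 and 171901 normalised reads, so the sum was lowest in mouse 2 although the share was not. Cd53 and Cd81 made up 85.7% ± 3.70 (SD, n = 3) of the summed member level per kb.

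Other tetraspanins were few in these cells. Of a list of 21 further family genes, 12 were listed in the table and the other 9 are not analysed here. Per kb, the 10 leukocyte members held 93.9% ± 3.26 (SD, n = 3) of the level of all 22 listed tetraspanins, with Cd53 at 44.8% ± 2.00 and Cd81 at 35.6% ± 2.63. Of the others, 7 entered the fit, where 1 was called higher, 1 lower and 5 were not called. Over all genes tested the shares were 23.3% higher and 10.7% lower.

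Tspan31 was the one called higher, at 11336, 2210.5 and 7791 normalised reads in mice 1, 2 and 3 (log2 difference 5.02 ± 0.47 SE, limma adjusted p = 1.02e-25). Per kb its mean of 3243 ± 2098 lay between those of Cd9 and Tspan13, with mouse 2 again the lowest. Tspan4 was at 15.3, 491 and 6720.3 normalised reads, almost all of it in mouse 3. Tspan32, a tetraspanin of blood cells, was at 5761, 643 and 973, highest in mouse 1. Tspan7 was at 6.45, 535 and 0, with mouse 2 holding nearly all of it. Tspan18 was the one called lower (log2 difference -4.95 ± 1.51 SE, limma adjusted p = 0.00456). Its call was lost without the trend (adjusted p = 0.0517, limma), with a pseudocount of 0.1 (0.110), without division by length (0.107), without mouse 1 (0.246) and without mouse 2 (0.0932). The call of Tspan31 held without the trend (adjusted p = 0.0460, limma).

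**Figure D3:**
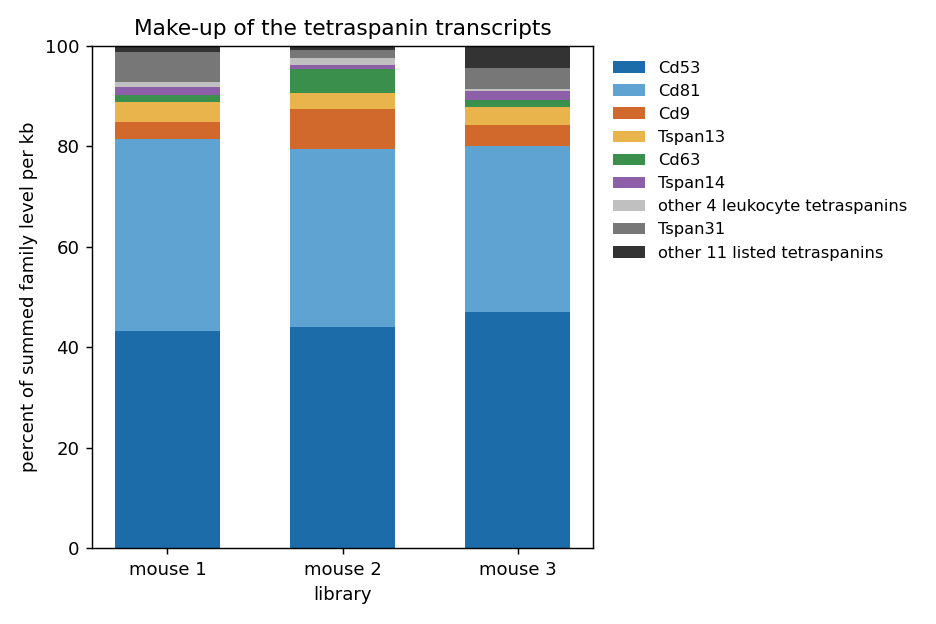
Share of the summed level per kb of all listed tetraspanins (vertical axis, percent) held by each gene in each mouse (horizontal axis). Cd53 and Cd81 fill most of each bar, the leukocyte members hold 92.8%, 97.6% and 91.4% in mice 1, 2 and 3, and Tspan31 is the largest single gene among the others in each library.

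Within the TspanC8 subgroup, Tspan14 was the only one of the 3 members in the fit that was called higher, and it alone reached 1000 normalised reads in every mouse. Tspan33 was at 16.1, 245 and 1501 normalised reads and Tspan17 at 29.0, 1.11 and 166, both highest in mouse 3 and without a call. Tspan5 was at 0.806, 2.22 and 0 and Tspan15 was at 0, 11.7 and 0, both at or near the floor. Tspan10 is not analysed here. The protease that these proteins bind, Adam10, named here for that reason after its values were seen, was at 3044, 2803 and 4156 normalised reads and was called higher (log2 difference 3.04 ± 0.68 SE, limma adjusted p = 5.15e-05). Without the trend this call was lost (adjusted p = 0.0708, limma). Adam10 and Tspan14 were both lowest in mouse 2 and highest in mouse 3. For Adam10 mice 1 and 2 were close, and for Tspan14 mice 1 and 3 were. A shared pattern was not tested, since 3 libraries are too few.

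A list of 20 known protein partners had 16 listed genes, of which 13 entered the fit: 7 were called higher, 1 lower and 5 were not called. Over all genes tested, 23.3% were called higher and 10.7% lower. The highest per kb of the exon union were Clec7a, which encodes the fungal receptor dectin-1 (6097 ± 3975 per kb), and Ptprc, which encodes CD45 (5258 ± 1649). Which of them was higher depends on the length used. With the longest transcript Ptprc lay 7.24 log2 units above the median gene and Clec7a 5.83. Without division by length Ptprc was also the higher, with a mean of 96284 normalised reads against 16083. The adhesion molecule Vcam1 (2536 ± 860), the integrin beta 1 chain Itgb1 (1751 ± 1387) and the protease Adam17 (1149 ± 697) followed. All 5 were called higher, but Itgb1 (adjusted p = 0.0541, limma) and Adam17 (adjusted p = 0.0710, limma) lost the call without the trend. In that setting 3 partners were called higher in all, beside 9.17% of all genes. Timp1, a ligand of CD63, and Ifitm1 were at 0 in every mouse. The partner called lower was Kit, at 0, 35.5 and 0.705 normalised reads in mice 1, 2 and 3, which entered the fit through mouse 2 alone (log2 difference -5.54 ± 1.27 SE, limma adjusted p = 7.5e-05). Igsf8, a direct partner of CD9 and CD81 that was picked out after its values were seen, was at 53.2, 819 and 338 normalised reads and was not called (log2 difference -0.74 ± 1.83 SE, limma adjusted p = 0.786).

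Of 14 genes of extracellular vesicle formation, all were listed and 12 entered the fit, where 4 were called higher, 1 lower and 7 were not called. These counts stand beside 23.3% higher and 10.7% lower over all genes tested. Sdcbp, which encodes the adaptor syntenin of CD63-bearing vesicles, was the highest at 50375, 42512 and 28469 normalised reads. The ESCRT gene Tsg101 was at 3144, 2497 and 6351 and the ATPase gene Vps4b at 11979, 5071 and 2042, both called higher. Without the trend, Sdcbp (adjusted p = 0.0429, limma) was the 1 vesicle gene still called higher, and Tsg101 (0.0504) and Vps4b (0.104) were lost. In that setting 9.17% of all genes were called higher. Vps4b was also lost without mouse 1 (adjusted p = 0.149, limma). Sdc4, a syndecan that binds syntenin, was called higher near the threshold (limma adjusted p = 0.0402, above the median gene in 3 of 3 mice). That call was lost without the trend, with a pseudocount of 0.1, among genes above 0 in every library, with the longest transcript, without division by length and without mouse 1 or 2 (adjusted p from 0.0562 to 0.747, limma). Flot1 was at 5.65, 563 and 2583 without a call. The vesicle gene called lower was Rab27a, at 72.6, 0 and 0 normalised reads in mice 1, 2 and 3, which entered the fit through mouse 1 alone (log2 difference -4.92 ± 1.52 SE, limma adjusted p = 0.00535). Without the trend no vesicle gene was called lower.

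The abundant members had a lower median spread between mice than abundant genes in general, but the sets were not matched for level. The median SD of log2(normalised count + 1) was 0.40 over the 6 members at 1000 or more in every mouse, against 0.61 over the 2180 genes that met the same threshold. Over all 10 members it was 0.84, against 1.12 over the 4499 genes with a mean of 1000 or more, a mean that 7 members reach, and 2.55 over all genes tested. The ratio of the highest to the lowest mouse was 1.45 for Cd53, 1.498 for Cd81, 1.67 for Tspan13, 1.75 for Cd9, 2.36 for Cd63, 3.32 for Tspan14 and 5.01 for Tspan3. It was 49.7 for Cd151 and 274 for Cd37. Without mouse 2 the median SD of the 10 members was 0.18, from mice 1 and 3 alone and with no value over all genes beside it. Tspan3, Cd151, Cd37 and Cd82 remained far apart between those mice.

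Mouse 2 stood apart in its markers of the kidney tubule, and members fell on different sides in it. Cd9, Cd63, Cd151 and Cd82 were highest in mouse 2, and Cd53, Cd81, Tspan13, Tspan14 and Cd37 were lowest in it. Of all genes tested, 34.0% were highest and 29.9% lowest in mouse 2. Markers of the proximal tubule, the main epithelium of the kidney cortex, were highest in mouse 2 in 10 of 10 cases. Their summed level was 0.149%, 0.708% and 0.0961% of the reads in mice 1, 2 and 3, with Kap at 35490.3, 172061 and 13511 normalised reads. Markers of the distal nephron took 0.000926%, 0.0316% and 0.00340%. Of the 12 macrophage markers, 8 were lowest in mouse 2 in normalised reads, with a median log2 deviation of -0.33 there. As a share of reads their sum was not lower in mouse 2, at 2.42%, 2.43% and 2.65% in mice 1, 2 and 3. In bulk samples fewer cells of a type and less RNA per cell cannot be told apart, and the part of tubule transcripts in the levels of Cd9, Cd63, Cd151 and Cd82 was not tested.

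**Figure D4:**
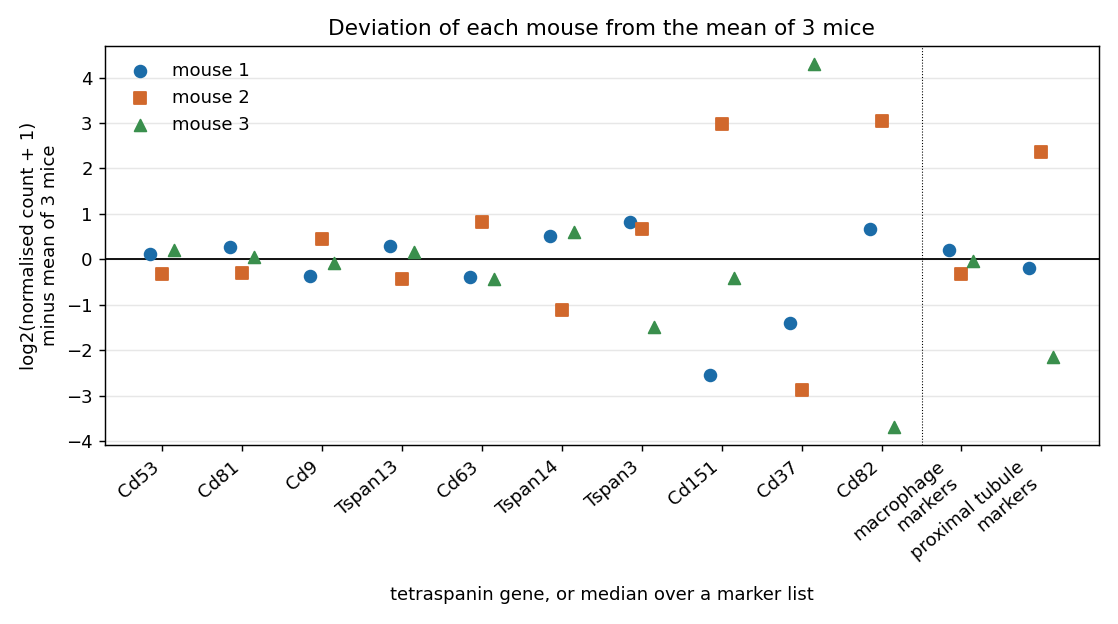
Deviation of each mouse from the mean of 3 mice (vertical axis, log2(normalised count + 1)) for each leukocyte tetraspanin, and at the right the median deviation over the macrophage and the proximal tubule marker lists. Mouse 2 (squares) lies above 0 for Cd9, Cd63, Tspan3, Cd151, Cd82 and the proximal tubule markers, and below 0 for Cd53, Cd81, Tspan13, Tspan14, Cd37 and the macrophage markers.

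The labelled cell type was checked against its markers. All 12 macrophage markers were at 1000 or more in every mouse, among them Adgre1 and Csf1r, and they took 2.42% to 2.65% of the reads. The T cell genes Cd3d and Cd3e stayed at or below 1.11 normalised reads, while Cd247 reached 166 in mouse 1 and Cd4 113 in mouse 3. The megakaryocyte gene Itga2b and the neutrophil gene S100a9 were at 0. The endothelial genes Pecam1 and Cdh5 were at most 4.84 and 25.0, but Kdr was at 453, 7.77 and 1345, and the 8 listed endothelial genes summed to 589, 135 and 1395 normalised reads. The platelet list as a whole took 0.0155% to 0.0216% of the reads. Of its 3 listed genes, Ppbp was at 2.42, 1.11 and 1698 normalised reads, and Pf4, which macrophages also make, at 6359.8, 6796 and 5289.6. Of 8 B cell markers only Cd79b and Ebf1 were listed, and Cd79b was at 227, 3939.8 and 6359.5 normalised reads. Cd79b and Cd37 were both highest in mouse 3, while in mouse 2 Cd37 was at 1.11, and no link between them was tested. The dendritic cell markers Flt3 and Zbtb46 were at most 16.2, while Clec9a was at 3421, 1330.3 and 1463 and Batf3 at 1269, 1794 and 2456. The part of such cells in the levels of the members was not tested.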

How the data were processed

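The libraries, 3 from 3 mice of a single group, were made with SMART-seq v4 after 30 min of tissue digestion, with 10 ng of amplified cDNA and 8 PCR cycles, per the labels' protocols. The deposited signal is in normalised reads. HTSeq 0.5.4 (a read counter), DESeq 1.18.0 (whose size factors scale counts) and build mm9 are named in the submitters' processing notes. The aligner, the annotation, the strand setting and how rows were kept are not stated there. The lowest deposited value was 1 in every library, and with this 1 removed, 100% of values lay within 0.05 of a whole number of reads. One read was worth 0.806, 0.555 and 0.705 normalised reads in mice 1, 2 and 3.

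Exon lengths came from GENCODE M21, an annotation of another build than mm9, matched by gene identifier (99.6% of genes), as the union of all exons of a gene. Log values used a pseudocount of 1, so differences of low genes are understated. For every gene, log2(normalised count per kb + 1) minus the median over tested genes of the same library was fitted with limma 3.58.1 (intercept only, trended prior, R 4.3.3) and adjusted by Benjamini-Hochberg over all 11603 genes, two-sided. The fit was run on simulated data with normal noise, where the check was of the mean estimate. The planted genes took their spread from genes of high level, so calls of low members were not tested there. Other steps used Python 3.11.15, numpy 2.4.6, pandas 2.3.3 and matplotlib 3.10.9.

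The members and lists were chosen with earlier results of these data known. Named were every member, the 6 highest other tetraspanins and the TspanC8 subgroup, the 5 highest partners and vesicle genes with those at 0, and the leading or defining markers. Outside these rules, Adam10, Igsf8, Kit, Rab27a and Tspan18 were also named, after their values were seen. With 3 libraries no gene was named for likeness of pattern. The labels name separate mice. Protein sequences were not analysed here. The annotation holds processed pseudogenes of Cd9 and Cd63, and genes on the opposite strand overlap exons of Cd9, Cd37, Cd81 and Cd151, so reads of these members are uncertain to that extent. Alternatives were other pseudocounts, filters, lengths, scalings and priors, and leaving out each mouse.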

Additional observations from a re-analysis of the deposited data

How the results depend on the processing

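Leaving out each mouse in turn, 6 to 7 members were called higher than the median gene, and the members held 0.444% to 0.463% of reads and 92.1% to 95.2% of the tetraspanin family. The members at 1000 or more normalised reads in every mouse kept were 6 to 7, a count that leaving out a mouse cannot lower. The number of neighbouring pairs that differed beyond their spread ranged from 3 to 6, and the median SD of the members from 0.181 to 1.05, each of these with the extreme value when mouse 2 was left out at 6 pairs and 0.181. Pairs were counted in either direction. Cd63 over Tspan14 without mouse 2 and Cd37 over Cd82 without mouse 3 were counted although reversed. The members' share of reads was 0.514% without mitochondrial genes in the total, which follows from the smaller total. The order of Cd53 over Cd81 turned with the longest transcript (log2 difference -0.51) and without division by length (-0.39), since Cd81 has the longer exon union. With all listed genes tested, Cd151 lay above the median gene (log2 difference 0.45, limma adjusted p = 0.893), as adding low genes lowered the reference median and moved every member up by the same 1.84 log2 units. Tspan3 lost its call among genes above 0 in every library (limma adjusted p = 0.0817), besides the settings named with its result. Over all genes, 2706 were called higher and 1237 lower, against 1064 and 416 without the trend, 2622 and 210 with a pseudocount of 0.1, 2688 and 581 without division by length, and 3699 and 3401 with all listed genes. Without mice 1, 2 and 3 the lower calls were 65, 346 and 118. The planned test of reads with a count model was not run. No paired analysis was possible because there is a single group.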
